A study of Megathyrsus maximus with 33 samples.

Results

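The 200 transcripts described here were those that separated warmed from unwarmed leaves of Guinea grass most sharply after 30 days of field treatment (time point A). Guinea grass is a perennial C4 forage grass. The transcripts were chosen by their values: among the 22558 of 39208 transcripts whose mean log2 value over the 16 libraries of time point A was at least 0, the 200 with the largest t statistic (unequal variances) for the 8 warmed against the 8 unwarmed libraries were taken. Every difference with warming at time point A is therefore a description of the choice and carries no test. The questions left for the data were how these transcripts stood at each level of [CO2] and whether they still differed with warming at time point B (50 days). The libraries of time point B were not used in the choice, but they came from the same 16 plots.

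Leaves were taken from 4 plots of each of 4 open-air treatments at both time points, which gave 32 libraries. The treatments were elevated [CO2] with elevated temperature (eCeT; 600 ppm and 2 °C of canopy warming), elevated temperature alone (eT; 2 °C), elevated [CO2] alone (eC; 600 ppm) and the control with neither (C). Warming came from infrared heaters above the canopy, and leaves of a plot, the youngest fully expanded ones, were pooled into 1 RNA sample per time point. The eCeT and eT plots are called warmed and the eC and C plots unwarmed. A plot is the replicate, so n = 4 per group at each time point. The replicate number of a plot within its treatment is called its ring below. Whether plots of like number in different treatments shared a location is not given in the sources used here.

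Plants meet warmth with a conserved heat response. Small heat shock proteins and the large chaperones of the HSP90 and HSP101 families hold or refold damaged proteins. Co-regulators such as MBF1C also act in this response. Warmth also acts on development: in Arabidopsis, leaves make more of the mobile protein FLOWERING LOCUS T (FT), which travels to the shoot tip and promotes flowering, when the temperature is raised. In the photosynthetic membrane, plastocyanin carries electrons to photosystem I. Gene names below are protein matches in Arabidopsis taken from the study's supplementary files, and they name 8 of the 200 transcripts. The other 192 are given by identifier alone, so most of the list could not be read as pathways.

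The deposited values are log2 CPM (reads scaled by library size) after TMM scaling, which evens out library composition, and a log2 value of 0 is 1 CPM. Reads recovered from them came to between 6148491 (an eT plot) and 12561618 per library at time point A and between 10208385 and 15638548 at time point B. All of the 200 transcripts had reads in all 16 libraries of time point A, and 8 of them had 0 reads in at least 1 library of time point B. A leaf marker, c82081_g1, matched to a light harvesting protein of photosystem I, had between 23 and 767 reads in the 32 libraries and 0 in none. In pooled leaf RNA, fewer cells of a type and less RNA per cell cannot be told apart.

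At time point A the 200 transcripts were higher in warmed than in unwarmed plots by 0.18 to 2.73 on the log2 scale, with a median of 0.71. The median of all 22558 transcripts was 0.02. Only 54 of the 200 differed by at least 1, and 55 differed by less than 0.5, so the list holds many small and even differences beside a few large ones. In 19 of the 200 all 8 warmed plots lay above all 8 unwarmed plots, against 0.0842% of the 22558 transcripts and 0.0612% of all 39208, a count that the choice itself favours. Together the 200 took between 1.08% and 1.56% of the reads in warmed plots and between 0.678% and 1.04% in unwarmed plots. The mean levels of the 200 ran from 0.03 to 10.78.

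The sharpest separation belonged to c89994_g1, with log2 values of 4.92, 4.83, 5.24 and 4.94 in eCeT plots, 4.87, 5.41, 5.24 and 5.09 in eT plots, 4.33, 4.43, 4.28 and 4.64 in eC plots and 4.49, 4.50, 4.45 and 4.26 in C plots. The lowest warmed plot stood above the highest unwarmed plot, although the means differed by only 0.65. The next by the same statistic were c81506_g1, c94391_g3, c84422_g1, c90456_g1 and c87841_g7, with differences of 0.43, 1.53, 0.48, 0.52 and 0.99. Among these 5 only c94391_g3 had overlapping groups at time point A. By time point B the warmed and unwarmed plots of all 6 overlapped, and their differences lay between -0.09 (c94391_g3) and 0.28 (c87841_g7). These 6 lead the statistic used for the choice, so the loss of separation is not read as a change over time.

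The largest differences at time point A were those of c63008_g1 (2.73), c78740_g2 (2.26), c66714_g1 (2.22), c78721_g1 (2.15) and c76359_g1 (1.81). These 5 were more scattered than the sharpest ones. In c63008_g1 the eT plots alone ran from -0.42 to 4.82, or 7 to 263 reads. The most abundant by CPM were c89336_g2, c75571_g10 and c91776_g2, with mean log2 levels of 10.78, 10.16 and 9.58 and differences at time point A of 0.41, 0.65 and 0.84. Per length, on the FPKM scale, the highest were c89336_g2 (1102 FPKM over the plots of time point A), c91776_g2 (973 FPKM) and c55895_g1 (806 FPKM), the last a transcript of 0.060 times the median length.

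The statistic ran on smoothly across the limit of the list. The last 3 inside were c93670_g3, c96260_g1 and c95937_g1, with statistics of 3.86, 3.85 and 3.85 and differences of 0.47, 0.21 and 1.29. Just outside were c93121_g1, c96585_g4 and c87557_g4, with 3.85, 3.85 and 3.85 and differences of 0.55, 0.76 and 1.08. The rule does not rank by size, since c95937_g1 at rank 200 differed more than c89994_g1 at rank 1.

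By [CO2] level at time point A, warming went with higher values of all 200 transcripts at elevated [CO2] (eCeT minus eC, 0.14 to 2.45, median 0.67) and at ambient [CO2] (eT minus C, 0.12 to 3.32, median 0.73). The choice pooled both levels, so nothing is read from this likeness. The difference was larger at elevated [CO2] in 82 transcripts and at ambient [CO2] in 118. The widest gaps in favour of elevated [CO2] were those of c84670_g1 (1.72 at elevated, 0.72 at ambient), c74982_g1 (1.43 and 0.46) and c77967_g6 (1.21 and 0.51). In favour of ambient [CO2] they were those of c63008_g1 (2.14 at elevated, 3.32 at ambient), c66069_g1 (2.30 at ambient) and c93089_g3 (0.70 and 1.49).

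**Figure D1:**
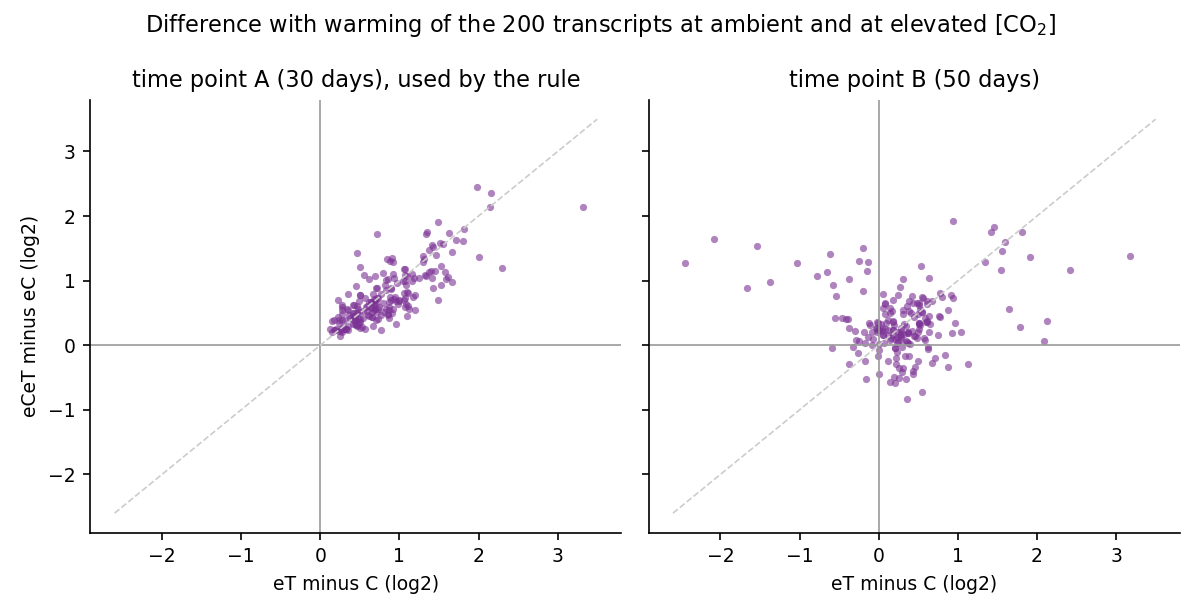
Each point is 1 of the 200 transcripts; the vertical axis gives eCeT minus eC and the horizontal axis eT minus C, as differences of mean log2 values over 4 plots per group, with the dashed line where they are equal. At time point A all 200 points lie above 0 on both axes; at time point B 122 do and the cloud is wider.

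After 50 days the 200 transcripts were still higher in warmed plots more often than not, but by less. The choice favours large differences at time point A. A smaller difference at time point B is therefore not read as a change over time, which was not tested. The difference was above 0 in 164 of the 200 (82%) and below 0 in 36, against 52.4% above and 47.6% below 0 among the 22558 transcripts. Without TMM scaling it was above 0 in 118 of the 200 and 19.7% of the 22558, where the median of the 22558 moved to -0.18. In the FPKM table, which also lacked the C plots of rings 3 and 4 at time point B, it was above 0 in 102 and 25.4%, with a median of -0.13 over the 22558, and the excess of the 200 over that median was 0.13, against 0.25 as deposited. In the deposited log2 values the median difference over the 200 was 0.26, with a range from -0.59 to 2.28, and 0.01 over the 22558. A difference of at least 1 was found in 15 of the 200 (7.5%) and in 0.465% of the 22558. In 12 of the 200 the difference at time point B was as large as or larger than that at time point A. These shares describe the list and were not tested, since its members were picked together.

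**Figure D2:**
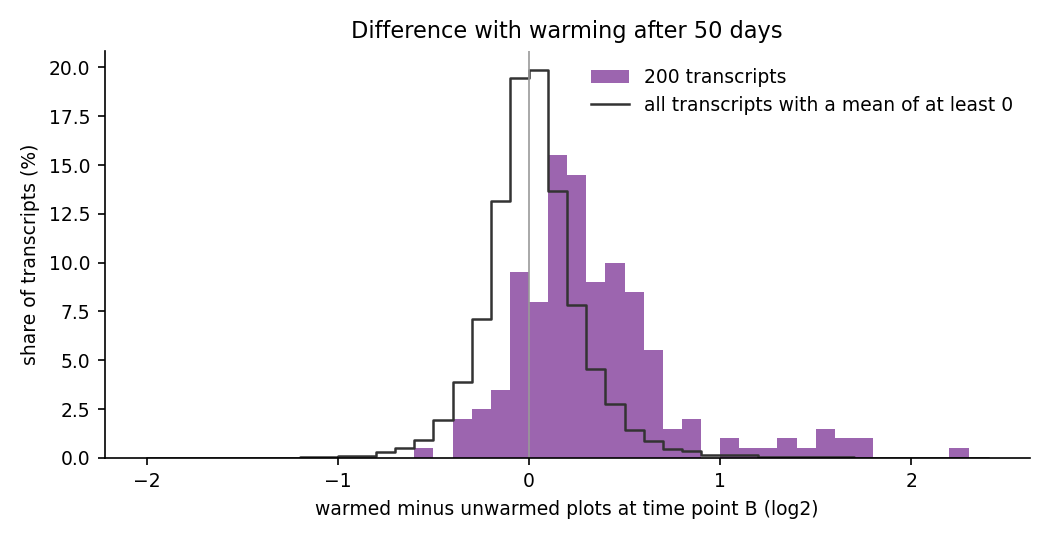
The horizontal axis is the difference between the means of warmed and unwarmed plots at time point B (log2), in steps of 0.1, and the vertical axis the share of transcripts; bars are the 200 transcripts and the line all 22558 with a mean of at least 0. The bars lie mostly to the right of 0, with a median of 0.26, while the line is centred near 0.

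Plots differed in how far they carried this. For each library the median deviation of the 200 transcripts from their own means at that time point was taken. At time point A it lay between 0.17 and 0.39 in warmed plots and between -0.44 and -0.24 in unwarmed plots. At time point B it was 0.37, 0.38, -0.21 and 0.34 in eCeT plots, 0.01, 0.10, 0.21 and 0.12 in eT plots, -0.04, -0.22, -0.17 and 0.05 in eC plots and 0.12, -0.15, -0.40 and -0.36 in C plots. The groups overlapped at time point B: the eCeT plot of ring 3 was low, and the C plot of ring 1 and the eC plot of ring 4 stood above the lowest eT plot. The median difference became 0.36 without that eCeT plot and 0.34 without that C plot.

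**Figure D3:**
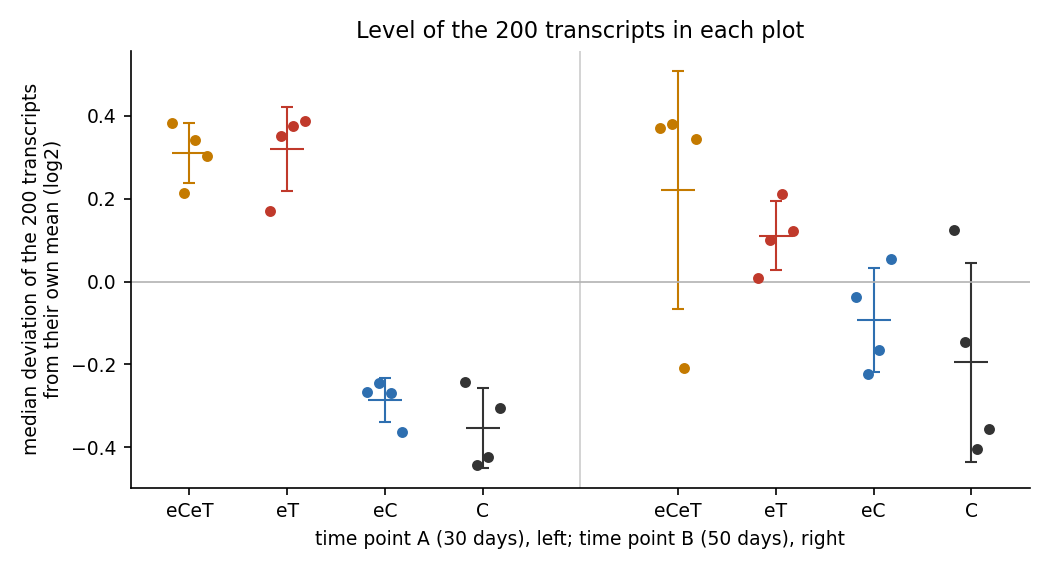
Each point is a library; the vertical axis is the median over the 200 transcripts of their deviation from their own mean over the 16 libraries of that time point (log2), and bars give the mean and SD of 4 plots. Warmed and unwarmed plots are fully apart at time point A, as the choice requires, and overlap at time point B, where the eCeT plot of ring 3 is at -0.21 and the C plot of ring 1 at 0.12.

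The 3 libraries of the eCeT plots of rings 1 and 2 and the C plot of ring 1 at time point B stood apart from the other 13 in part of these transcripts. The mean of these 3 exceeded the mean of the 13 by more than 1 in 34 of the 200 transcripts (17%) and in 2.82% of the 22558. They were the highest 3 of the 16 libraries in 33 of the 200 (16.5%) and in 2.88% of the 22558. The 3 were picked after these values were seen, so the counts describe that pick and carry no test. By the median deviation they were not a separate set. The eCeT plot of ring 4 (0.34) lay close to those of rings 1 and 2, and the C plot of ring 1 (0.12) lay under the eT plot of ring 3 (0.21). The 3 libraries hold warmed and unwarmed plots, and they touch the results by [CO2]. The counts by [CO2] at an unadjusted p under 0.05 are given with and without them. Without them the median difference at time point B was 0.26 and 160 of the 200 differences were above 0.

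In the limma test across all transcripts at time point B (limma, Benjamini-Hochberg adjusted p under 0.1), 5 of the 200 were higher in warmed plots and 0 were lower, against 0.0459% of all 39208 transcripts called higher, or 0.0665% of the 22558. At an unadjusted p under 0.05, 70 of the 200 were higher and 0 were lower, against 6.6% and 3.26% of the 22558. That model took its spread from all 32 libraries, and the choice favoured a small spread at time point A. With only the 16 libraries of time point B, 1 of the 200 was called, beside 5 of all 39208. There 57 of the 200 had an unadjusted p under 0.05, and 3325 of all 39208, against 2926 with all 32 libraries. With the ring number as a block 10 of the 200 were called, beside 38 higher and 5 lower of all 39208. The number of calls hung on single plots. Without the eCeT plot of ring 2, 0 of the 200 and 2 of all 39208 were called. At an unadjusted p under 0.05 there were 61 of the 200 and 2571 of all 39208. Without the eT plot of ring 3, 0 of the 200 and 0 of all 39208 were called, with 60 and 2573 at that p. Without the eCeT plot of ring 3, 30 of the 200 were called. The calls over all 39208 were then 235 higher and 73 lower, against 18 and 0 with every plot. None of the 200, and 0 of all 39208, were called when the 3 libraries that stood apart were left out. There 58 of the 200 had an unadjusted p under 0.05, and 2403 of all 39208. Leaving them out was a choice made after the values were seen.

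The called transcripts with the largest differences were both matched to FT, the flowering signal made in leaves. At time point B c64038_g2 had log2 values of 5.41, 4.37, 3.18 and 4.35 in eCeT plots, 3.36, 4.13, 4.17 and 4.47 in eT plots, 2.20, 2.43, 2.71 and 4.42 in eC plots and -1.95, 1.27, 2.12 and 1.98 in C plots. All 8 warmed plots exceeded the unwarmed ones apart from the eC plot of ring 4. The lowest value, in the C plot of ring 1, was 3 reads, against 504 reads in the eCeT plot of the same number. The transcript was higher in warmed plots by 2.28 ± 0.46 (SE; limma, adjusted p = 0.078). Without the C plot of ring 1 the difference was 1.81, and without the 3 libraries that stood apart it was 1.53.

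The other FT match, c77009_g3, had 5.07, 4.09, 2.94 and 4.24 in eCeT plots, 3.37, 4.31, 4.41 and 4.30 in eT plots, 2.32, 2.38, 2.65 and 4.30 in eC plots and -0.67, 2.80, 2.08 and 2.51 in C plots. Here too the warmed plots exceeded the unwarmed ones apart from the eC plot of ring 4, and the C plot of ring 1 was lowest. It was higher in warmed plots by 1.79 ± 0.38 (SE; limma, adjusted p = 0.097), a call kept in 9 of 28 alternatives. The difference was 1.40 without the C plot of ring 1 and 1.15 without the 3 libraries that stood apart. Both transcripts match the same Arabidopsis protein, so reads may be split or shared between them, which was not tested. They were among the 12 transcripts whose difference at time point B was at least that of time point A, where they differed by 1.67 (c64038_g2) and 1.23 (c77009_g3).

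The other 3 called transcripts have no named match. The smallest adjusted p was that of c92698_g1, with 5.66, 5.87, 5.37 and 5.86 in eCeT plots, 6.73, 5.81, 6.53 and 6.49 in eT plots, 5.09, 4.15, 5.71 and 6.32 in eC plots and 4.94, 4.20, 4.08 and 3.84 in C plots. It was higher in warmed plots by 1.25 ± 0.22 (SE; limma, adjusted p = 0.029), and the C plots were the low group. Next was c77441_g1, with 4.41, 4.65, 3.92 and 4.79 in eCeT plots, 2.90, 4.21, 4.77 and 3.96 in eT plots, 2.32, 3.02, 3.07 and 2.94 in eC plots and 2.14, 2.52, 2.46 and 2.35 in C plots. Its 4 C plots lay close together, only the eT plot of ring 1 fell among the unwarmed plots, and the difference was 1.60 ± 0.29 (SE; limma, adjusted p = 0.034).

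The last, c91290_g1, had 2.42, 2.81, 1.88 and 2.13 in eCeT plots, 1.81, 2.12, 2.06 and 2.19 in eT plots, between 1.38 and 1.74 in eC plots and 1.59, 1.42, 1.06 and 0.90 in C plots. It was the only 1 of the 200 in which all 8 warmed plots lay above all 8 unwarmed plots at time point B, against 0.0399% of the 22558 transcripts and 0.023% of all 39208. The difference was 0.78 ± 0.16 (SE; limma, adjusted p = 0.078), almost the same size as at time point A (0.81).

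**Figure D4:**
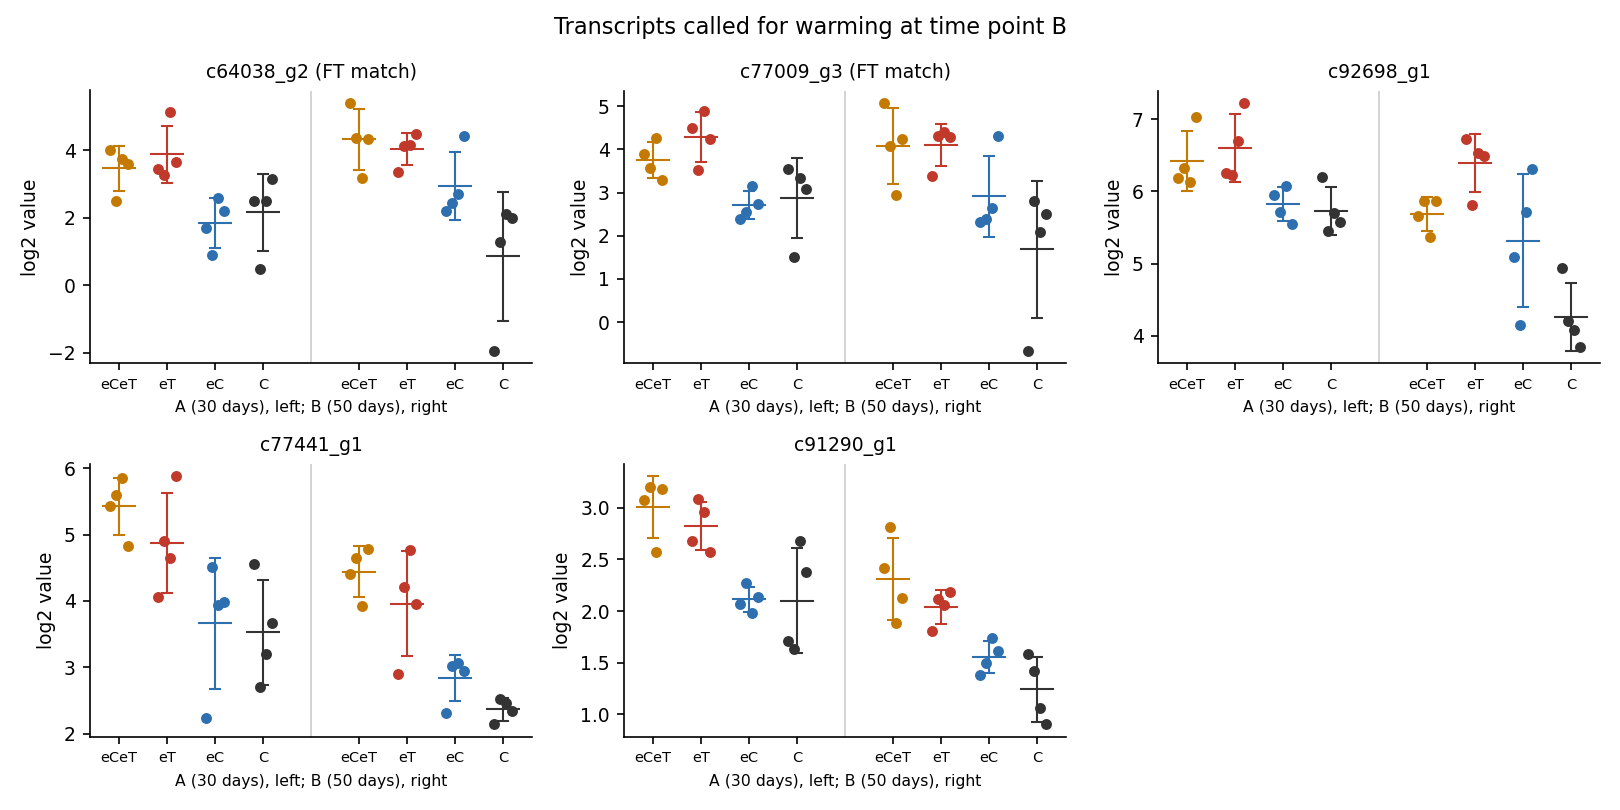
Log2 values of the 5 transcripts called for warming at time point B, in each plot at time point A (left) and time point B (right) by treatment; points are plots and bars the mean and SD of 4 plots. The FT matches have their lowest value, -1.95 and -0.67, in a C plot of time point B, and c91290_g1 is the transcript whose warmed plots all exceed the unwarmed ones there.

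By [CO2] level at time point B, the difference with warming had a median of 0.28 at elevated [CO2] (eCeT minus eC; above 0 in 160 of 200 and below 0 in 40, against 54% and 46% of the 22558) and of 0.28 at ambient [CO2] (eT minus C; above 0 in 154, against 51.2%). It was above 0 at both levels in 122 of the 200 (61%), against 29.2% of the 22558, below 0 at both in 8, and of mixed sign in 70. At elevated [CO2] 0 of the 200 were called (limma, adjusted p under 0.1; 0% of all transcripts called higher), with 50 higher and 2 lower at an unadjusted p under 0.05, against 4.21% and 2.14% of the 22558. voom on the recovered reads also called 0. Those 52 became 29, 26 and 91 without the eCeT plots of rings 1, 2 and 3, and 19 without the 3 libraries that stood apart. Over all 39208 transcripts the count of 2201 became 2048, 1619, 3231 and 2186 in the same order. At ambient [CO2] 1 was called, c92698_g1, against 0.0179% of all transcripts and 0.0266% of the 22558. At an unadjusted p under 0.05, 51 were higher and 4 lower at ambient [CO2], against 5.29% and 3.89%. These 55 became 71 without the 3 libraries that stood apart, while the count over all 39208 went from 2845 to 3052. With the ring number as a block 2 were called at ambient [CO2], and 0 were called with only the 16 libraries of time point B (smallest limma adjusted p = 0.16, and 45 at an unadjusted p under 0.05) or in the FPKM table (22).

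For c92698_g1 the difference was 0.37 ± 0.31 at elevated [CO2] (SE; limma, adjusted p = 0.96) and 2.13 ± 0.31 at ambient [CO2] (SE; limma, adjusted p = 0.0030). The test of that gap gave an interaction of -1.76 ± 0.43 (SE; limma, adjusted p = 0.93). The smallest adjusted p of the interaction over all 39208 transcripts was also 0.93 (limma). The 2 differences were thus not shown to differ after that adjustment. None of the 200 was called for the interaction, where 25 had an unadjusted p under 0.05 (11 with the larger difference at elevated and 14 at ambient [CO2], against 3.42% and 2.38% of the 22558), voom also called 0, and 0% of all transcripts were called. Without the 3 libraries that stood apart, 0 of the 200 were called and 28 had an unadjusted p under 0.05. Of all 39208 transcripts 1 was then called higher and 1 lower, and the count at an unadjusted p under 0.05 went from 2079 to 2695. The difference was larger at elevated [CO2] in 97 of the 200, against 51.4%.

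Elevated [CO2] itself, averaged over warmed and unwarmed plots at time point B, called 0 of the 200 (limma; 0.00255% of all transcripts and 0.00443% of the 22558 called in each direction), and voom called 0. At an unadjusted p under 0.05, 19 were higher and 17 lower, against 4.11% and 2.87%. These 36 became 26 without the 3 libraries that stood apart, where 0 were called, while the count over all 39208 went from 2367 to 2504. Without the C plot of ring 1, 1 of the 200 was called, beside 1 of all 39208. The difference between elevated and ambient [CO2] was above 0 in 139 and below 0 in 61 of the 200, against 52.7% and 47.3% of the 22558, with a median of 0.08 against 0.01. The smallest p among the 200 was that of the MBF1C match c75211_g1, at a difference of 1.89 (limma, adjusted p = 0.67). Its C plot of ring 3 had 0 reads at time point B, so that difference depends on the 0.5 reads added to every count.

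Matches to 3 heat response proteins were among the named transcripts. HSP21, a small heat shock protein of the chloroplast, was the match of c78721_g1. Its log2 values at time point A were 4.99, 4.28, 6.37 and 5.08 in eCeT plots, 2.75, 3.45, 3.90 and 4.78 in eT plots, 4.32, 2.31, 3.44 and 2.09 in eC plots and 2.25, 1.66, 1.28 and 1.09 in C plots. At time point B the values were 1.58, 2.53, 1.66 and 5.00 in eCeT plots, 0.19, 0.08, 2.41 and 2.56 in eT plots, -1.05, 0.45, 1.09 and 3.28 in eC plots and 0.92, -1.34, -0.52 and -1.06 in C plots. The group means kept the order eCeT, eT, eC and C at both time points, but plots overlapped, and the difference with warming at time point B was 1.78 ± 0.53 (SE; limma, adjusted p = 0.29), which did not pass the test.

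BAG6, a calmodulin-binding co-chaperone, was the match of c95990_g1. At time point B it had 3.33, 4.47, 3.39 and 4.62 in eCeT plots, 2.23, 3.22, 3.47 and 3.73 in eT plots, 1.19, 1.18, 2.21 and 3.56 in eC plots and 2.21, 1.72, 2.62 and 2.32 in C plots. Only the eT plot of ring 1 among warmed plots and the eC plot of ring 4 among unwarmed plots broke the separation. The difference was 1.43 ± 0.32 (SE; limma, adjusted p = 0.14), against 1.71 at time point A.

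MBF1C, a transcriptional coactivator of the heat response, was the match of c75211_g1, with 2.39, 2.68, 1.31 and 3.08 in eCeT plots, -0.66, -0.03, 0.97 and 0.88 in eT plots, -0.20, 0.67, 0.12 and 1.57 in eC plots and 1.69, -1.05, -4.22 and -1.06 in C plots at time point B. The C value of ring 3 is that of 0 reads, so the difference of 1.64 ± 0.47 (SE; limma, adjusted p = 0.27) depends on the 0.5 reads added to every count. Without the C plot of ring 3 the difference was 1.13. The eCeT plots were the high group, while eT and eC plots overlapped.

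A list of 8 transcripts held matches to heat shock proteins, a coactivator and a co-chaperone, and all 8 had higher means in warmed plots. The median difference was 1.41 at time point A and 1.21 (0.78 to 1.78) at time point B. At time point B limma called 0 of 8, while 7 of 8 were higher at an unadjusted p under 0.05, against 6.6% of the 22558. The direction was the same in all 8 without TMM scaling and in the FPKM table, but the median at time point B was 0.40 (0.06 to 1.01) in FPKM, and adding 5 reads to each count gave 0.88 (0.27 to 1.45). The study chose these transcripts because they changed in these samples, so the count at time point A is not independent evidence of its direction. The counts at time point B come from the same plots and are not independent of that choice either. Only 3 of the 8 were among the 200. Of the others, c88586_g2 (HSP101), c76756_g2 (HSP18.2) and c85117_g1 (a class II small heat shock protein) were higher by 0.96, 1.39 and 0.85 at time point A but ranked 1902, 1013 and 2878 because their plots were scattered, and the means of c69462_g3 (HSP90.1) and c84367_g1 (HSP18.2) were under 0.

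A transcript matched to a hydroxyproline-rich glycoprotein, c135193_g1, had 6.21, 6.78, 5.27 and 7.03 in eCeT plots, 5.25, 6.57, 6.57 and 5.30 in eT plots, 5.19, 5.11, 5.08 and 4.78 in eC plots and 4.23, 5.34, 4.43 and 4.31 in C plots at time point B. The C plot of ring 2 alone overlapped the warmed plots. The difference was 1.31 ± 0.32 (SE; limma, adjusted p = 0.16), against 1.56 at time point A.

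**Figure D5:**
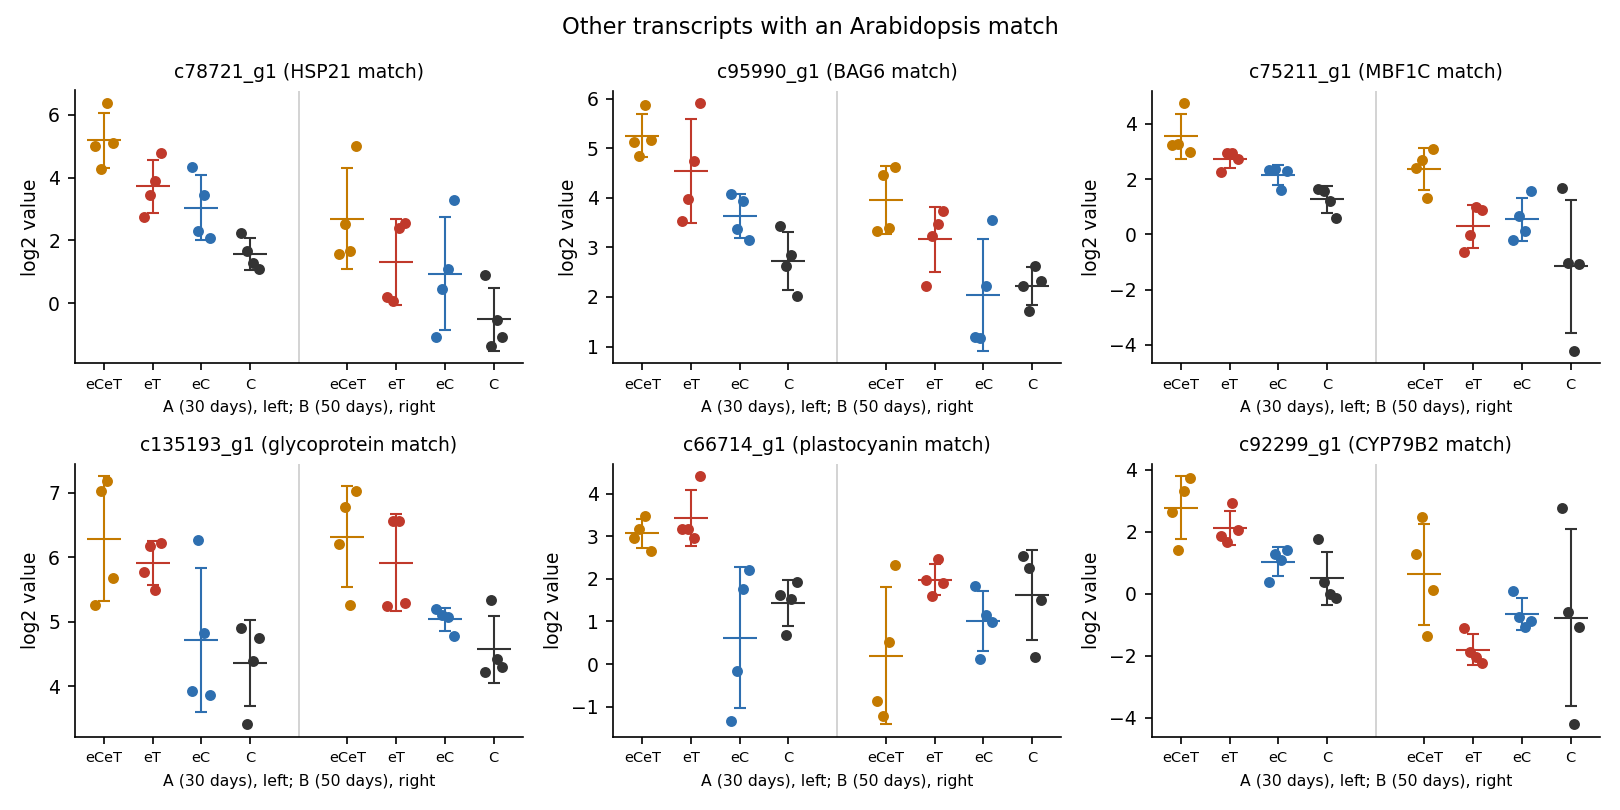
Log2 values of the 6 other transcripts with an Arabidopsis match, in each plot at time point A (left) and time point B (right) by treatment; points are plots and bars the mean and SD of 4 plots. The matches of HSP21, BAG6, MBF1C and the glycoprotein have higher means in warmed plots at both time points, with differences of 1.31 to 1.78 at time point B, while the differences there are -0.23 for plastocyanin and 0.12 for CYP79B2.

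The matches of plastocyanin and CYP79B2 had differences near 0 at time point B, as averages over [CO2] levels of unlike sign. The difference was 0.36 at ambient and -0.83 at elevated [CO2] for c66714_g1, and -1.04 and 1.28 for c92299_g1. The average was above 0 in 0 of 28 alternatives for c66714_g1. It turned only without the 3 libraries that stood apart. For c92299_g1 the average was above 0 in 23 of 27. The plastocyanin match c66714_g1 at time point A had 2.96, 3.17, 3.48 and 2.66 in eCeT plots, 3.17, 3.16, 2.96 and 4.41 in eT plots, -1.33, -0.16, 1.76 and 2.21 in eC plots and 1.61, 0.68, 1.53 and 1.92 in C plots, so that the warmed plots were all higher than the unwarmed ones. At time point B its means were 0.19 ± 1.61 in eCeT and 1.98 ± 0.36 in eT plots, and 1.02 ± 0.70 in eC and 1.62 ± 1.06 in C plots (SD, n = 4 each), a difference with warming of -0.23 against 2.22 at time point A. It was 0.54 without the 3 libraries that stood apart. The other 3 transcripts of the chloroplast electron transport list, matched to a light harvesting protein, NDF1 and CRR3 (the last 2 act in the NDH complex of cyclic electron flow), had differences of -1.62, -1.81 and -1.27 at time point A and -0.68, -1.06 and -1.17 at time point B, and limma called 0 of 4 at time point B. So the plastocyanin match was the only transcript of that list that was higher in warmed plots at time point A. Here too the study had picked the transcripts on these samples.

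CYP79B2 makes indole-3-acetaldoxime from tryptophan in Arabidopsis, a step towards defence compounds. Its match c92299_g1 had 2.62, 1.41, 3.30 and 3.73 in eCeT plots, 1.86, 1.66, 2.91 and 2.05 in eT plots, 0.36, 1.29, 1.07 and 1.41 in eC plots and 1.75, 0.36, 0.00 and -0.13 in C plots at time point A. At time point B the reads were few, 28, 70, 4 and 8 in eCeT plots, 5, 3, 2 and 3 in eT plots, 16, 10, 5 and 6 in eC plots and 91, 7, 0 and 5 in C plots. The highest count at time point B was in the C plot of ring 1, and the difference of 0.12 was -0.45 without the C plot of ring 3, which had 0 reads, and 0.71 without the C plot of ring 1. Of the 9 transcripts in the specialised metabolism list, also picked by the study on these samples, 3 were higher and 6 lower in warmed plots at time point A, c92299_g1 was the only 1 among the 200, and limma called 0 of 9 at time point B.

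A further list of 7 transcripts was grouped here from those that the study related to metabolites at time point B, and it held both FT matches. Of the 7, limma called 4 higher with warming at time point B and 0 lower: the 2 FT matches, c72426_g1 (a Rossmann-fold protein, 0.98) and c88026_g1 (a DnaJ-domain chaperone, 0.62). The study picked its transcripts on these libraries, so this is not independent evidence. At time point A the last 2 differed by 0.18 and 0.28 and were not among the 200.

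At the other end, the differences at time point B were most negative for c95864_g2 (-0.59), c84626_g1 (-0.39) and c68507_g1 (-0.35). In c95864_g2 the reads at time point B were 12, 18, 0 and 5 in eCeT plots, 2, 1, 0 and 0 in eT plots, 7, 2, 5 and 0 in eC plots and 33, 2, 2 and 2 in C plots. In c84626_g1 they were 18, 21, 5 and 1 in eCeT plots, 2, 0, 2 and 1 in eT plots, 15, 7, 4 and 1 in eC plots and 113, 1, 3 and 0 in C plots. The C plot of ring 1 thus held most of the reads of C, and the eCeT plots of rings 1 and 2 most of those of eCeT. These 2 transcripts had between 6 and 65 reads in every library of time point A.

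When the 200 were split into 4 sets of 50 by their difference at time point A, the medians at time point B were 0.15, 0.28, 0.34 and 0.44 from the smallest to the largest differences, against 0.38, 0.61, 0.85 and 1.33 at time point A. Split by mean level at time point A, the number above 0 at time point B was 35, 39, 41 and 49 of 50 from the lowest to the highest levels. Within groups the SD of a transcript between plots had a median of 0.32 at time point A, and it was 0.46 at time point B, against 0.35 and 0.33 over the 22558. The choice favours a small spread and a large difference at time point A but not at time point B.

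Levels were also lower at time point B. In warmed plots 191 of the 200 were lower at time point B than at time point A (median -0.60, against -0.03 over the 22558), and in unwarmed plots 138 were (median -0.25, against -0.06). Values of time point A took part in the choice, so these changes are descriptions. The abundant c91776_g2 averaged 9.80, 10.19, 9.24 and 9.08 in eCeT, eT, eC and C plots at time point A and 7.94, 6.16, 6.52 and 6.77 in the same order at time point B. Nothing in the assembly tied the 200 together: no 2 of them shared an assembly component, 78 of the 200 (39%) came from a component with another transcript in the table, against 41.0% of the 22558, and their median length relative to the library median was 1.01, against 1.04.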

How the data were processed

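RNA-seq libraries of pooled leaves from 16 plots at 2 time points were analysed (32 libraries); a pooled library used for the assembly was not used here. The authors deposited log2 values of 39208 transcripts of their own assembly, log2 CPM of reads plus 0.5 over a TMM-scaled library size, and a table of FPKM, of which 29 columns were used because header lines disagree for 3. The submitters' notes name CASAVA and bcl2fastq 1.8.4; the aligner is not given in the sources used here. Reads were recovered from the step of 1 read (100% within 0.02 of a whole number up to 1000 reads). The members and gene lists were chosen with earlier results of these data known. Tests used limma 3.58.1 in R 4.3.3: 1 model of 8 groups over 32 libraries, variance trend, Benjamini-Hochberg over 39208 transcripts, adjusted p under 0.1. Other steps used Python 3.11.15, numpy 2.4.6 and pandas 2.3.3. The statistics were tested on simulated data. Columns of the authors' own comparisons were not used.

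Transcripts were named by rule: the extremes in statistic, difference, level and [CO2] gap, those next to the limit, those called at time point B and those with an Arabidopsis match of E up to 0.0001. Labels give each plot a replicate number that recurs in every treatment, called its ring here, and it was fitted as a block. Same-numbered plots correlated in their deviations from group means with a mean of 0.08 at time point B (range -0.08 to 0.22) and 0.02 at time point A. Pairs of unlike number had means of -0.03 and -0.01. The values are small, but 12 of 16 libraries at time point B correlated best with plots of their own number, and 6 of 16 at time point A. The main model leaves the ring number out. Alternatives were no trend, robust moderation, array weights, the 16 libraries of time point B, other scalings, voom, FPKM, a higher filter, a threshold of 0.05 and omission of single plots; leaving out 3 libraries was added after the data were seen. The labels also give each of the 16 plots a number of its own, and warmed and unwarmed plots fall in separate runs of consecutive numbers. Where each plot lay in the field is not given in the sources used here. An effect of position therefore cannot be told apart from that of warming. The paper names soil and slope as possible sources of variation that its analysis could not take into account. The p-values measure the spread between plots only.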

Additional observations from a re-analysis of the deposited data

Results flagged for a closer look

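In 7 of 96 groups of 4 plots the highest or lowest plot lay far from the other 3 by Dixon's criterion; chance flags about 5% of groups. The groups were the 8 of the median deviation of the 200 transcripts and 8 for each of 11 named transcripts. For the median deviation, the eT plot of ring 1 was low at time point A (0.17) and the eCeT plot of ring 3 low at time point B (-0.21). At time point B c77441_g1 was low in the eC plot of ring 1 (2.32), and c77009_g3 was low in the eT plot of ring 1 (3.37) and high in the eC plot of ring 4 (4.30). At time point A c75211_g1 was low in the eC plot of ring 3 (1.62) and c66714_g1 high in the eT plot of ring 4 (4.41). No difference between [CO2] levels in the response to warming passed its test, and in 0 of the 200 were the plots fully apart in opposite directions at the 2 levels.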

How the results depend on the processing

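The 5 calls for warming at time point B (18 of all 39208) became 10 with the replicate block (38 higher and 5 lower of all). They became 0 without a variance trend (0 of all) and 3 with robust moderation (13 of all). Array weights gave 37 (353 higher and 108 lower of all 39208). With the 16 libraries of time point B alone 1 was called (5 of all), with median centring 10 (27 of all) and with voom 1 (2 of all). There were 2 without TMM scaling (4 of all), 0 in the FPKM table (0 of all) and 2 at an adjusted p under 0.05 (5 of all). None was called without the 3 libraries that stood apart (0 of all), and 0 to 30 were called with a plot left out. The number among the 200 was 0 without the eCeT plot of ring 2 or the eT plot of ring 3, and 1 without the eT plot of ring 2. It was 2 without the eT plot of ring 4, the eCeT plots of rings 1 and 4 or the eC plots of rings 1 to 3. Without the C plots of rings 3 and 4 it was 3. In these fits 0 to 7 of all 39208 were called higher and 0 lower. Without the eT plot of ring 1 it was 9 (51 higher and 4 lower of all). It was 10 without the C plot of ring 1 (46 higher of all) or of ring 2 (68 higher and 3 lower of all). Without the eC plot of ring 4 it was 18 (99 higher and 31 lower of all). Without the eCeT plot of ring 3 it was 30 (235 higher and 73 lower of all). At ambient [CO2] the 1 call (7 of all 39208) became 2 with the block (9 of all) or median centring (12 of all). It also became 2 with array weights (20 higher and 4 lower of all) or quantile normalization (16 higher and 2 lower of all). Without TMM scaling it became 3 (5 of all). It became 0 with the 16 libraries alone (0 of all) or in the FPKM table (1 lower of all). With a plot left out 1 to 3 were called. There were 2 without the eC plot of ring 4 (12 higher and 1 lower of all) and 3 without the C plot of ring 2 (15 higher and 4 lower of all). At elevated [CO2] array weights gave 9 calls, beside 41 higher and 20 lower of all 39208. Leaving out plots gave 0 to 1 there (1 without the eC plot of ring 4, beside 2 higher of all 39208). For [CO2] leaving out plots gave 0 to 1 (1 without the C plot of ring 1, beside 1 of all 39208), and for the interaction 0 throughout.

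The median difference at time point B was 0.0056 in the FPKM table, where 102 of the 200 were above 0, and 0.21 to 0.36 (158 to 174 above 0) with a plot left out. Without TMM scaling and in the FPKM table the median of the 22558 moved to -0.18 and -0.13. Relative to it the 200 stood 0.25 higher as deposited and without TMM scaling and 0.13 higher in FPKM, where the C plots of rings 3 and 4 at time point B were not used. Run again, the rule kept 98 of the 200 with limma's moderated t, 124 without TMM scaling, 95 in the FPKM table, 143 with the ring means removed and 138 to 173 with a plot left out. Over 28 alternatives c92698_g1 and c77441_g1 were called in 22 each, c64038_g2 in 13, c91290_g1 in 11 and c77009_g3 in 9, with adjusted p from 0.0035 to 0.71 over these 5 transcripts, and all differences stayed above 0. The difference of c66714_g1 turned to 0.54 without the 3 libraries, and that of c92299_g1 to -0.072 without TMM scaling, -0.36 in FPKM, -0.19 without the eCeT plot of ring 2 and -0.45 without the C plot of ring 3, with 0.71 without the C plot of ring 1. The causes were not tested. Transcripts under about 10 reads at time point B were limited by depth.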
